A study of Homo sapiens with 6 samples.

Results

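The 10 genes described here are ligands, inhibitors and targets of the bone morphogenetic protein (BMP) and transforming growth factor beta (TGF-beta) pathways: BMP4, TGFB1, TGFB2, INHBE, FST, SMAD6, SMAD7, ID1, ID2 and ID3. They were chosen by symbol from the 26475 genes of the deposited count table, and all 10 were found. RNA sequencing had been carried out on HepG2, a human liver cancer line. There were 3 libraries from cells expressing TAF2 and 3 libraries from cells expressing enhanced green fluorescent protein (eGFP). TAF2 belongs to TFIID, the complex that recognises core promoters, and the eGFP cells, which make an unrelated fluorescent protein, were set against it. The labels used here name neither the vector nor whether each line was a clone or a pool, and they do not say that replicates were separate cultures. The p-values therefore measure only how these libraries varied, and that variation may be technical.

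BMPs, TGF-betas and activins are secreted dimers that bind paired serine/threonine kinase receptors, which phosphorylate receptor SMAD proteins. These join SMAD4 and enter the nucleus, where BMP signals act through SMAD1, SMAD5 and SMAD9 and TGF-beta and activin signals through SMAD2 and SMAD3. SMAD6 and SMAD7 are inhibitory SMADs induced as feedback, and the ID genes are direct BMP targets in many cell types. ID proteins are helix-loop-helix proteins without a DNA-binding region, and they hold basic helix-loop-helix factors away from DNA. In liver, BMP signalling to hepatocytes controls the iron hormone hepcidin, and hepatocytes make activin E from INHBE.

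Levels are given as CPM, counts scaled to library sizes adjusted by the trimmed mean of M-values (TMM), and differences as log2 fold changes of TAF2 over eGFP, written as log2 change beside a test. Total expected counts ranged from 24631251 to 28024004 in TAF2 libraries and from 22276308 to 27137862 in eGFP libraries. TAF2 itself had 50.1, 48.3 and 47.4 CPM in the TAF2 libraries, against 35.8, 40.4 and 37.5 CPM in the eGFP libraries (log2 change 0.36, SE 0.046, edgeR adjusted p = 1.44e-08). All 8 hepatocyte markers examined were above 1 CPM, with summed levels of 35279 to 37093 CPM in TAF2 libraries and 43397 to 45087 CPM in eGFP libraries. Of 8 stellate cell and fibroblast markers, 5 were under 1 CPM, DCN and LUM at 0 among them. COL1A1, PDGFRB and ACTA2 averaged at least 1 CPM over the libraries. The sums of this list were 66.2 to 70.7 CPM in TAF2 and 55.1 to 58.6 CPM in eGFP libraries. All 5 endothelial markers were under 1 CPM (sums of 0.549 to 0.714 CPM in TAF2 and 0.295 to 1.08 CPM in eGFP), with KDR and TEK at 0. Among 5 blood and Kupffer cell markers, PTPRC, CD163, HBB and CD3E were at 0 and CD68 gave the sum of 34.7 to 37.0 CPM in TAF2 and 45.5 to 49.1 CPM in eGFP libraries. The part of these marker differences in the results below was not tested. In such bulk RNA, a change in the number of expressing cells and in RNA per cell cannot be told apart.

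Of the 10 genes, 9 passed the filter on low counts, and 5 of the 9 differed between the groups at a Benjamini-Hochberg adjusted p of 0.05 by edgeR's quasi-likelihood test, 3 higher and 2 lower with TAF2. BMP4 and FST rose most, TGFB1 rose slightly, and INHBE and ID2 fell. SMAD6, SMAD7, ID1 and ID3 did not pass the test. Over all 12902 tested genes the same threshold called 43.0%, with 20.6% higher and 22.4% lower, so the count of calls among the 9 genes is close to that of the table. The median log2 fold change of the 9 genes was 0.04, against -0.0027 over all tested genes, and their median absolute change was 0.12, against 0.13. The CPM of TAF2 and eGFP libraries did not overlap for 5 of the 9, against 50.6% of all tested genes. Tested against a minimum change of 1.5-fold (glmTreat), the genes called among the 10 were BMP4 (adjusted p = 0.000644) and FST (adjusted p = 0.00719), and 2.89% of all tested genes were called this way.

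**Figure D1:**
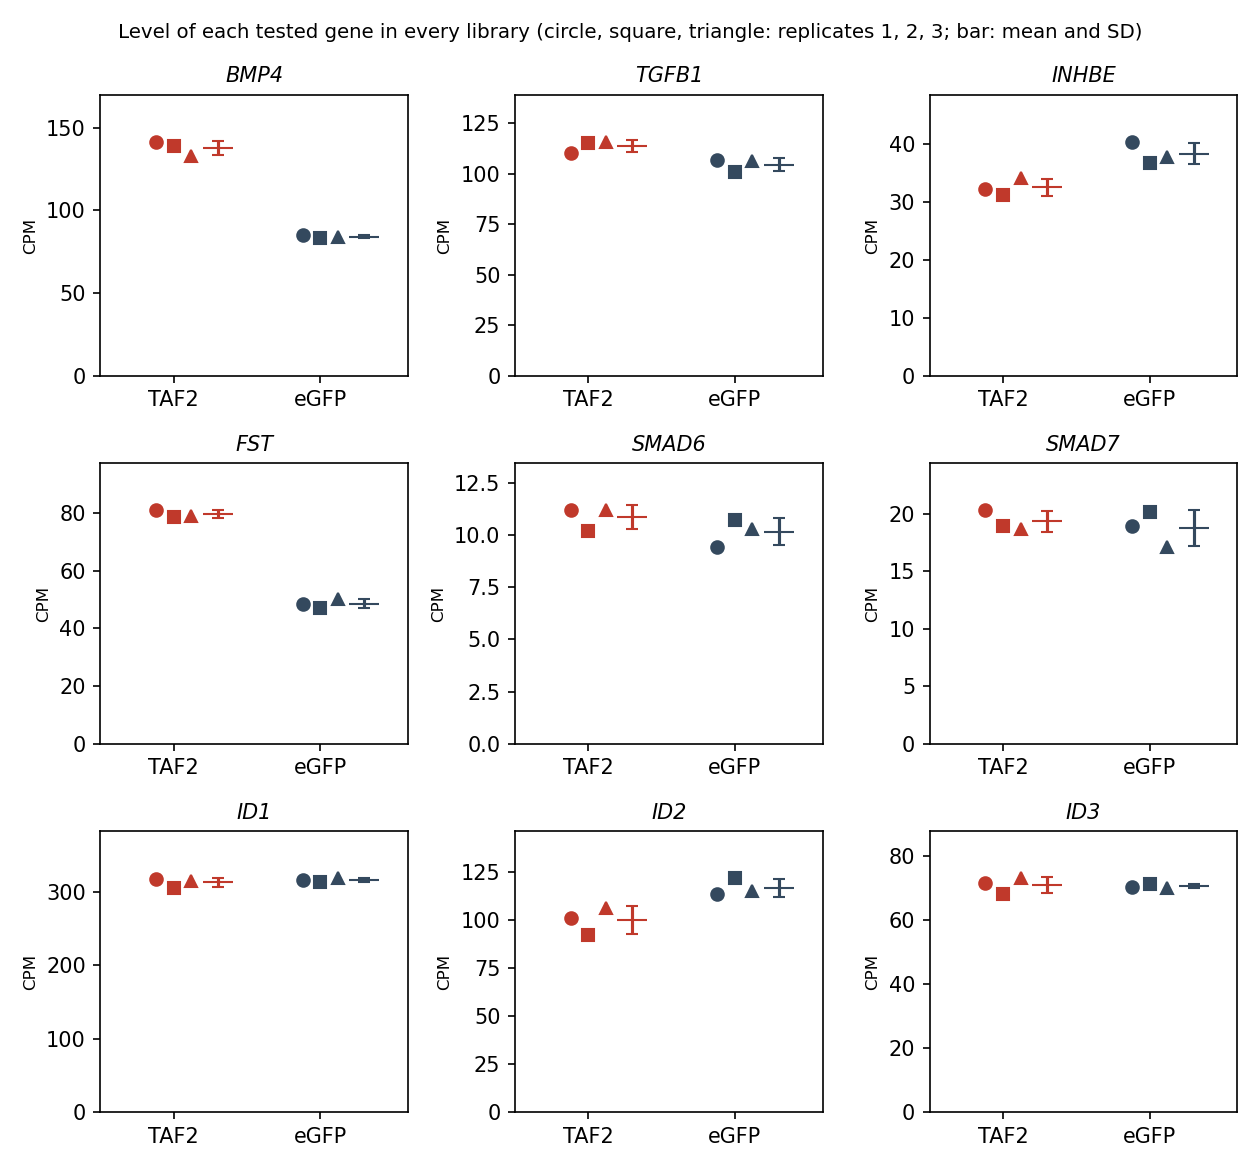
CPM of the 9 tested genes in each library, with TAF2 on the left and eGFP on the right of each panel; symbols mark replicates 1 to 3, and the bar beside them gives the mean and SD (n = 3). BMP4 lies at 133 to 141 CPM in TAF2 and 83.1 to 84.9 CPM in eGFP libraries, while ID1 lies at 306 to 318 CPM in TAF2 and 314 to 319.5 CPM in eGFP libraries.

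Promoter windows are printed for 3 genes: BMP4, which rose, and ID1 and SMAD6, BMP-responsive genes that did not pass the test. No gene that fell is among them. Each is the 250 bases before a transcription start in RefSeq (GRCh38.p14), read 5′ to 3′ on the gene's strand. Capitals mark matches to the palindromic SMAD-binding element GTCTAGAC, the GC-rich BMP response element core GGCGCC or the SMAD box CAGAC, each searched on both strands, so that the box also appears as GTCTG. The BMP4 window (chr14:53955051-53955300, minus strand) belongs to the first of 3 starts in the table and lies inside the BMP4 gene but outside its exons in GENCODE 29. The SMAD6 window (chr15:66701986-66702235, plus strand) and the ID1 window (chr20:31605039-31605288, plus strand) lie outside annotated exons apart from 8 bases in SMAD6 and 6 bases in ID1.
BMP4: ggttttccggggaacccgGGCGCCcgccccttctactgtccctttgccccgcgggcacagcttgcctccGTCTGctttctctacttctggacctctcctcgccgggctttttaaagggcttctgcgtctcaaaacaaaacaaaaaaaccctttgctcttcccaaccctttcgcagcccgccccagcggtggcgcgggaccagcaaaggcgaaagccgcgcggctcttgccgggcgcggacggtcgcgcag
SMAD6: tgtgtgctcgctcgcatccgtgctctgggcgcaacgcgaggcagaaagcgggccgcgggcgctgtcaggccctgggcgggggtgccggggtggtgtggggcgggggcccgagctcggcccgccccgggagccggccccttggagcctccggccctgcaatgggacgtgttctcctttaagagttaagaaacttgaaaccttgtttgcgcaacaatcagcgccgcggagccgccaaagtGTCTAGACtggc
ID1: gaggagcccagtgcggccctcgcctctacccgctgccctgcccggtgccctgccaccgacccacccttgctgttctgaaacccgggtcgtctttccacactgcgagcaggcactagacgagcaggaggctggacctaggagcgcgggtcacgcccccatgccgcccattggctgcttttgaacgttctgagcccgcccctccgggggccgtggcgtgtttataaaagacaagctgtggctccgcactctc

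The SMAD6 window held GTCTAGAC at -12 to -5 from the start, a motif found in 0.182% of 35116 such windows in the table. The BMP4 window held GGCGCC at -232 to -227, found in 16.4% of all windows, and a SMAD box at -181 to -177, found in 38.0%. The ID1 window held none of the 3 motifs. The RefSeq table matched 9 of the 10 genes, with 13 windows, and INHBE had no entry. SMAD boxes lay also in windows of the third BMP4 start, TGFB2, ID3 and the first 2 of 3 SMAD7 starts. The remaining windows, those of FST, TGFB1 and ID2 among them, had no match. None of the matches overlapped another, and a match is a description of the letters in these windows only.

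BMP4 differed most among the 4 ligand genes of the 10. BMP4 (chromosome 14, 53949736 to 53956891, GRCh38.p14), a BMP that acts early in liver and mesoderm development, had 141, 139 and 133 CPM in TAF2 libraries, against 84.9, 83.1 and 84.0 CPM in eGFP libraries. Every TAF2 library lay above every eGFP library, and the 3 eGFP libraries varied by less than counting error predicts (coefficient of variation 1.07%, against 2.19% from counting). The level averaged 138 ± 4.43 CPM in TAF2 and 84.0 ± 0.901 CPM in eGFP (SD, n = 3 each), a rise of 1.64-fold (95% interval 1.57 to 1.71; log2 change 0.71, SE 0.030, edgeR adjusted p = 8.78e-23). Of all tested genes, 5.76% had a larger absolute change. Within 5 Mb of BMP4, 58 other tested genes had a median log2 fold change of 0.01.

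TGFB1 (chromosome 19, 41330323 to 41353922), the main TGF-beta ligand of most tissues, had 110.1, 115 and 116 CPM in TAF2 libraries, against 107, 101 and 106 CPM in eGFP libraries. The groups did not overlap, but the lowest TAF2 and the highest eGFP library were close. The means were 114 ± 3.11 CPM in TAF2 and 104 ± 3.29 CPM in eGFP (SD, n = 3 each), a rise of 0.12 on the log2 scale (SE 0.031, edgeR adjusted p = 0.00128). With library sizes scaled without the genes of chromosomes 4 and 11 (the chromosome 11 median was -0.27), it was 0.08 (adjusted p = 0.0357).

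TGFB2 (chromosome 1, 218345336 to 218444619), a second TGF-beta ligand, had a count of 0 in all 6 libraries. A count of 0 allows up to 0.107 to 0.122 CPM in a TAF2 library and 0.111 to 0.135 CPM in an eGFP library, by a limit of 3 counts that covers counting error only. Pooled over 3 libraries the limit was 0.0384 CPM in TAF2 and 0.0404 CPM in eGFP. TGFB2-AS1 and TGFB2-OT1, the RNAs that overlap TGFB2, also had 0 counts in each library. Because TGFB2 itself had 0 counts throughout, no difference of TGFB2 was detectable at this depth and none was tested.

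INHBE (chromosome 12, 57455307 to 57458025), which encodes the subunit of activin E, was lower with TAF2. It had 32.2, 31.2 and 34.1 CPM in TAF2 libraries, against 40.3, 36.7 and 37.8 CPM in eGFP libraries, and the groups did not overlap. Its mean was 32.5 ± 1.5 CPM in TAF2 and 38.3 ± 1.85 CPM in eGFP (SD, n = 3 each), which is -0.24 in log2 (SE 0.049, edgeR adjusted p = 0.000118). The neighbouring INHBC, which encodes the subunit of activin C, lies 3244 bases from INHBE. INHBC had 6.53, 5.97 and 7.32 CPM in TAF2 libraries, against 8.15, 9.54 and 9.42 CPM in eGFP libraries, and fell by 0.44 on the log2 scale (SE 0.102, edgeR adjusted p = 0.000396). The 112 other tested genes within 5 Mb of INHBE had a median log2 fold change of 0.03.

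FST (chromosome 5, 53480629 to 53487134) encodes follistatin, a secreted protein that binds and neutralises activins. It had 81.1, 78.8 and 78.8 CPM in TAF2 libraries, against 48.5, 47.0 and 50.2 CPM in eGFP libraries. The 2 groups were widely separated, and each was tight. FST averaged 79.6 ± 1.33 CPM in TAF2 and 48.6 ± 1.64 CPM in eGFP (SD, n = 3 each), a rise of 1.64-fold (95% interval 1.55 to 1.73; log2 change 0.71, SE 0.038, edgeR adjusted p = 1.56e-19). Its fold change thus had nearly the same value as that of BMP4, and 19 other tested genes within 5 Mb of FST had a median of 0.05. Within a library the log2 ratio of INHBE to FST was -1.33, -1.34 and -1.21 in TAF2 libraries, against -0.27, -0.36 and -0.41 in eGFP libraries. This ratio, which does not depend on library scaling, was lower by 0.95 in TAF2 (exact 2-sided permutation p = 0.1, the smallest that 3 against 3 allows, and 0.167 adjusted over the 5 ratios tested).

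The inhibitory SMADs were the least abundant of the detected genes, and neither passed the test. SMAD6 (chromosome 15, 66702236 to 66782849), which mainly restrains BMP signals, had 11.2, 10.2 and 11.2 CPM in TAF2 libraries, against 9.44, 10.7 and 10.3 CPM in eGFP libraries. The groups overlapped, and the spread within each was about that of counting (5.28% in TAF2 and 6.37% in eGFP, against 5.94% and 6.32% from counting). The interval of the fold ran from 0.951 to 1.21 (log2 change 0.10, SE 0.087, edgeR adjusted p = 0.361). SMAD7 (chromosome 18, 48919853 to 48950965), which restrains both branches, had 20.3, 19.0 and 18.7 CPM in TAF2 libraries, against 19.0, 20.2 and 17.1 CPM in eGFP libraries. These too overlapped, and the fold had an interval of 0.940 to 1.13 (log2 change 0.04, SE 0.066, edgeR adjusted p = 0.625). For SMAD7 the 26 other tested genes within 5 Mb had a median log2 fold change of 0.13, and 73.1% of them were higher with TAF2. For SMAD6 the corresponding median over 63 genes was 0.06. The log2 ratio of SMAD7 to SMAD6 was 0.83 ± 0.082 in TAF2 and 0.88 ± 0.139 in eGFP (SD, n = 3 each; exact 2-sided permutation p = 0.6, adjusted 0.6).

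Of the 3 ID genes, ID2 fell, and ID1 and ID3 did not pass the test. ID1 (chromosome 20, 31605289 to 31606510) had 318, 306 and 316 CPM in TAF2 libraries, against 316, 314 and 319.5 CPM in eGFP libraries. The groups overlapped in part, with TAF2 replicate 2 lowest and eGFP replicate 3 highest, and the interval of the fold was narrow, from 0.958 to 1.02 (log2 change -0.02, SE 0.023, edgeR adjusted p = 0.638). With scaling that left out chromosomes 4 and 11, ID1 was called lower, at -0.057 in log2 (adjusted p = 0.0431).

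ID2 (chromosome 2, 8682056 to 8684461) had 101, 92.5 and 107 CPM in TAF2 libraries, against 114, 122 and 115 CPM in eGFP libraries. All TAF2 libraries lay below all eGFP libraries, although the TAF2 libraries varied more than for any other of the 9 genes in that group (coefficient of variation 7.12%, against 1.96% from counting). Its mean was 100.2 ± 7.13 CPM in TAF2 and 117 ± 4.58 CPM in eGFP (SD, n = 3 each), a fall to 0.858-fold (95% interval 0.796 to 0.924; log2 change -0.22, SE 0.048, edgeR adjusted p = 0.00329). The antisense gene ID2-AS1 had 8 to 18 counts in TAF2 and 14 to 24 counts in eGFP libraries, against at least 2356 counts for ID2 in any library. The 25 other tested genes within 5 Mb of ID2 had a median log2 fold change of -0.07, and 72.0% of them were lower with TAF2.

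ID3 (chromosome 1, 23557926 to 23559501) had 71.5, 68.1 and 73.1 CPM in TAF2 libraries, against 70.3, 71.1 and 69.8 CPM in eGFP libraries. The groups overlapped, and the fold had an interval of 0.958 to 1.06 (log2 change 0.01, SE 0.036, edgeR adjusted p = 0.839). ID3 lies in a region where most genes were lower with TAF2: 128 other tested genes within 5 Mb had a median log2 fold change of -0.16, and most of them, 75%, were lower. That median lies below the 95% interval of ID3, which ran from -0.06 to 0.08.

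**Figure D2:**
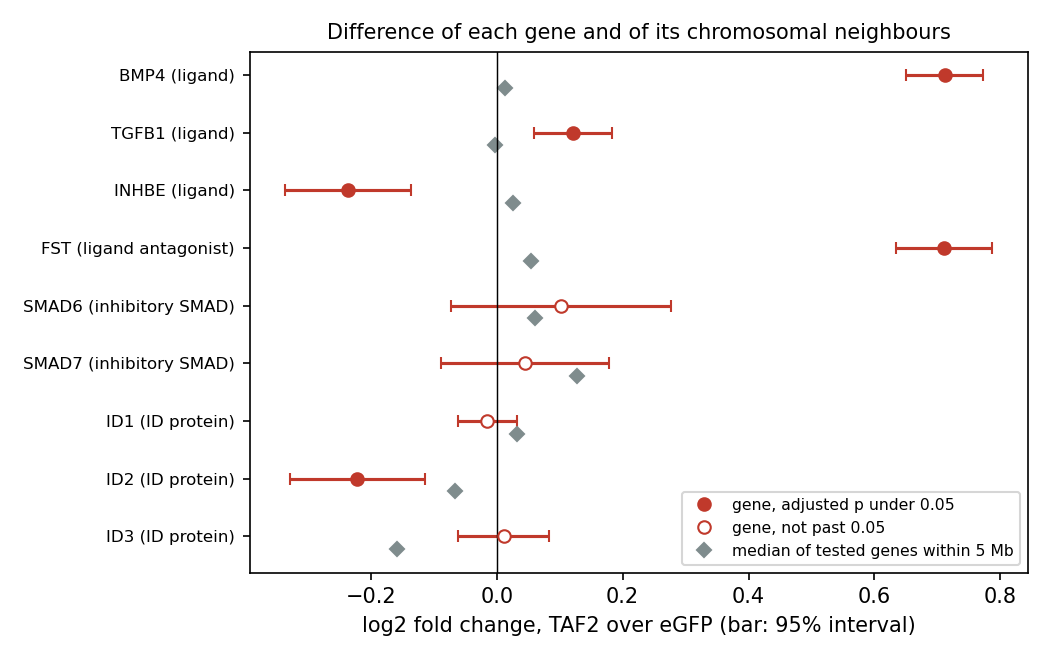
Log2 fold change of TAF2 over eGFP for the 9 tested genes (circles, filled where the adjusted p is under 0.05, with 95% intervals), and the median of the other tested genes within 5 Mb of each (diamonds). BMP4 and FST both stand at 0.71, far from their neighbours' medians of 0.01 and 0.05, and ID3 at 0.01 lies above its neighbours' median of -0.16.

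Ratios within a library set the ID genes against each other. The log2 ratio of ID1 to ID2 was 1.65, 1.73 and 1.57 in TAF2 libraries, against 1.48, 1.36 and 1.47 in eGFP libraries, without overlap. The ratio of ID3 to ID2 was -0.51, -0.44 and -0.54 in TAF2 libraries, against -0.69, -0.78 and -0.72 in eGFP libraries, also without overlap. Each of these ratios was higher in TAF2, by 0.21 for ID1 to ID2 and 0.24 for ID3 to ID2 (exact 2-sided permutation p = 0.1 for each, the smallest possible, and 0.167 adjusted over 5 ratios). Both ratios have ID2 as denominator, so they are not independent of each other or of the ID2 result above. ID1 to ID3 was 2.14 ± 0.029 in TAF2 and 2.17 ± 0.026 in eGFP (SD, n = 3 each; exact permutation p = 0.4, adjusted 0.5). Another fixed ratio, TGFB2 to TGFB1, could not be formed because TGFB2 was at 0.

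**Figure D3:**
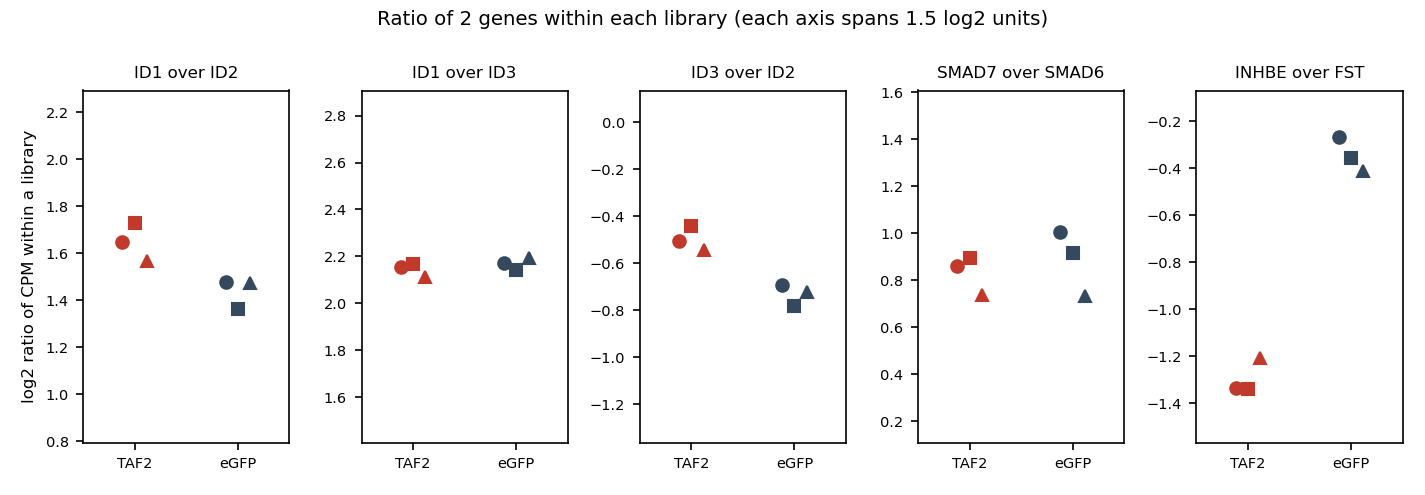
Log2 ratio of the CPM of 2 genes within each library, TAF2 on the left and eGFP on the right of each panel, symbols marking replicates 1 to 3; every axis spans the same range. INHBE to FST lies between -1.34 and -1.21 in TAF2 and between -0.41 and -0.27 in eGFP libraries, while ID1 to ID3 overlaps.

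Per kilobase of transcript, ID1 had the highest level of the 10 genes in both groups, with 281 CPM per kilobase in TAF2 and 284 CPM per kilobase in eGFP. BMP4 ranked 2 in TAF2 at 77.2 ± 2.49 CPM per kilobase and 4 in eGFP at 47.1 ± 0.505 CPM per kilobase (SD, n = 3 each). In TAF2 libraries BMP4 and the next gene, ID2 at 73.5 ± 5.24 CPM per kilobase, differed by less than the spread of ID2, whereas in eGFP libraries ID2 had 85.9 ± 3.36 CPM per kilobase. ID3 (56.7 in TAF2 and 56.3 in eGFP), TGFB1 (41.1 and 37.7), FST (31.5 and 19.2), INHBE (13.4 and 15.8), SMAD7 (8.46 and 8.21) and SMAD6 (4.15 and 3.88 CPM per kilobase) followed. Lengths were means over the listed transcripts found in GENCODE 29, which for BMP4 was 1 of 3, so the order is approximate.

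The rest of the pathway was examined in 7 lists of 135 genes in all, of which 80 were tested, 28 rose and 19 fell (58.8% called, against 43.0% of all tested genes). Among 29 further BMP, activin and GDF ligands, 9 were tested, 0 rose and 3 fell (33.3% called, against 43.0% of all tested genes). Their median log2 fold change was -0.19. This is the value of BMP6, which was not past the threshold (interval -0.97 to 0.59, edgeR adjusted p = 0.731). BMP6 was low, at 0.441 ± 0.162 CPM in TAF2 and 0.504 ± 0.176 CPM in eGFP libraries (SD, n = 3 each). GDF7, a BMP-family ligand, had 2.92, 2.47 and 2.36 CPM in TAF2 libraries, against 5.79, 6.61 and 5.89 CPM in eGFP libraries (log2 change -1.24, SE 0.135, edgeR adjusted p = 3.43e-10). INHA, the inhibin alpha subunit, had 4.58 ± 0.598 CPM in TAF2 and 5.64 ± 0.209 CPM in eGFP (SD, n = 3 each; log2 change -0.31, edgeR adjusted p = 0.0413), and it was not past the threshold without eGFP replicate 1 (0.126), eGFP replicate 2 (0.0784), eGFP replicate 3 (0.0604) or TAF2 replicate 3 (0.240) nor with upper-quartile scaling (0.0501), with no filter on low counts (0.0577) or by DESeq2 (0.148). Of the 29 ligands, 10 had 0 counts in all libraries.

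Of 12 tested receptors and co-receptors, 2 rose and 4 fell (50% called, against 43.0% of all tested genes). Their median log2 fold change was 0.02, but -0.010 without eGFP replicate 3 and -0.017 without TAF2 replicate 2. TGFBR2, the type II TGF-beta receptor, had 382, 388 and 383 CPM in TAF2 libraries, against 318, 321 and 332 CPM in eGFP libraries, and rose by 0.25 on the log2 scale (SE 0.023, edgeR adjusted p = 3.72e-12). The BMP co-receptor RGMB rose by 0.40 (13.2 ± 0.896 CPM in TAF2 and 9.98 ± 0.799 CPM in eGFP). BMPR1A, a type I BMP receptor, fell by 0.16, and the co-receptor TGFBR3 by 0.07. The fall of TGFBR3 was not past the threshold without eGFP replicate 1 (adjusted p = 0.0648) or TAF2 replicate 1 (0.103).

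Of 12 tested extracellular antagonists, latency proteins and proteases, 5 rose and 5 fell (83.3% called, against 43.0% of all tested genes, with a median of 0.10). THBS1, thrombospondin, which can activate latent TGF-beta, had 209.8, 197 and 206 CPM in TAF2 libraries, against 122, 127 and 123 CPM in eGFP libraries (log2 change 0.72, SE 0.028, edgeR adjusted p = 2.03e-24). FURIN, the protease that cleaves ligand precursors, rose by 0.29. FSTL3, a relative of follistatin, moved opposite to FST, with 17.3, 16.2 and 15.6 CPM in TAF2 libraries, against 24.3, 22.7 and 24.6 CPM in eGFP libraries (log2 change -0.55, SE 0.063, edgeR adjusted p = 1.04e-09). LTBP3, a latent TGF-beta binding protein on chromosome 11, fell by 0.25, where 205 other tested genes within 5 Mb had a median of -0.28.

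Of 23 SMADs and intracellular regulators, all tested, 8 rose and 3 fell (47.8% called, against 43.0% of all tested genes, with a median of 0.04). BAMBI, a decoy receptor, had 21.5, 22.2 and 22.5 CPM in TAF2 libraries, against 16.3, 14.1 and 17.4 CPM in eGFP libraries (log2 change 0.47, SE 0.067, edgeR adjusted p = 2.00e-07). The ubiquitin ligase NEDD4L rose by 0.20, with a median of 0.15 over 21 other tested genes within 5 Mb. SKI and SKIL, repressors of SMAD complexes, fell by 0.26 and 0.33. SKI lies on chromosome 1 among 87 other tested genes within 5 Mb whose median was -0.17.

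Other BMP targets went both ways: of 5 tested, 2 rose and 1 fell (60% called, against 43.0% of all tested genes, with a median of 0.25). HEY1, a helix-loop-helix repressor that is also a Notch target, had 28.5, 27.2 and 29.9 CPM in TAF2 libraries, against 9.11, 8.14 and 9.78 CPM in eGFP libraries (log2 change 1.66, SE 0.070, edgeR adjusted p = 6.44e-23). HAMP, which encodes hepcidin, had 15.4, 12.6 and 15.4 CPM in TAF2 libraries, against 24.1, 20.6 and 23.6 CPM in eGFP libraries (log2 change -0.66, SE 0.074, edgeR adjusted p = 9.22e-09). The groups did not overlap for either gene. GATA2, a blood and endothelial transcription factor, rose by 0.36.

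Of 16 tested TGF-beta targets, 9 rose and 3 fell (75% called, against 43.0% of all tested genes, with a median of 0.17). FN1, fibronectin, had 15844, 16119 and 16108 CPM in TAF2 libraries, against 10075, 9816 and 10285 CPM in eGFP libraries (log2 change 0.67, SE 0.017, edgeR adjusted p = 1.64e-30), and 50 other tested genes within 5 Mb had a median of 0.19. TGFBI, a matrix protein, rose by 0.26, and TAGLN, an actin-binding protein on chromosome 11, fell by 0.88, where 61 other tested genes within 5 Mb had a median of -0.24. Among helix-loop-helix partners of ID proteins and relatives, 2 of 4 tested rose and 0 fell. This was 50% called, against 43.0% of all tested genes, with a median of 0.24. That median lies between the values of TCF3 and ID4. ID4 (0.25, not past the threshold) is itself an ID gene and is also counted among the other BMP targets above. TCF3, an E protein that ID proteins bind, rose by 0.23 (150.4 ± 1.90 CPM in TAF2 and 128 ± 2.76 CPM in eGFP), and the repressor HES1 by 0.52 (28.2 ± 1.27 CPM in TAF2 and 19.6 ± 1.24 CPM in eGFP; SD, n = 3 each).

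**Figure D4:**
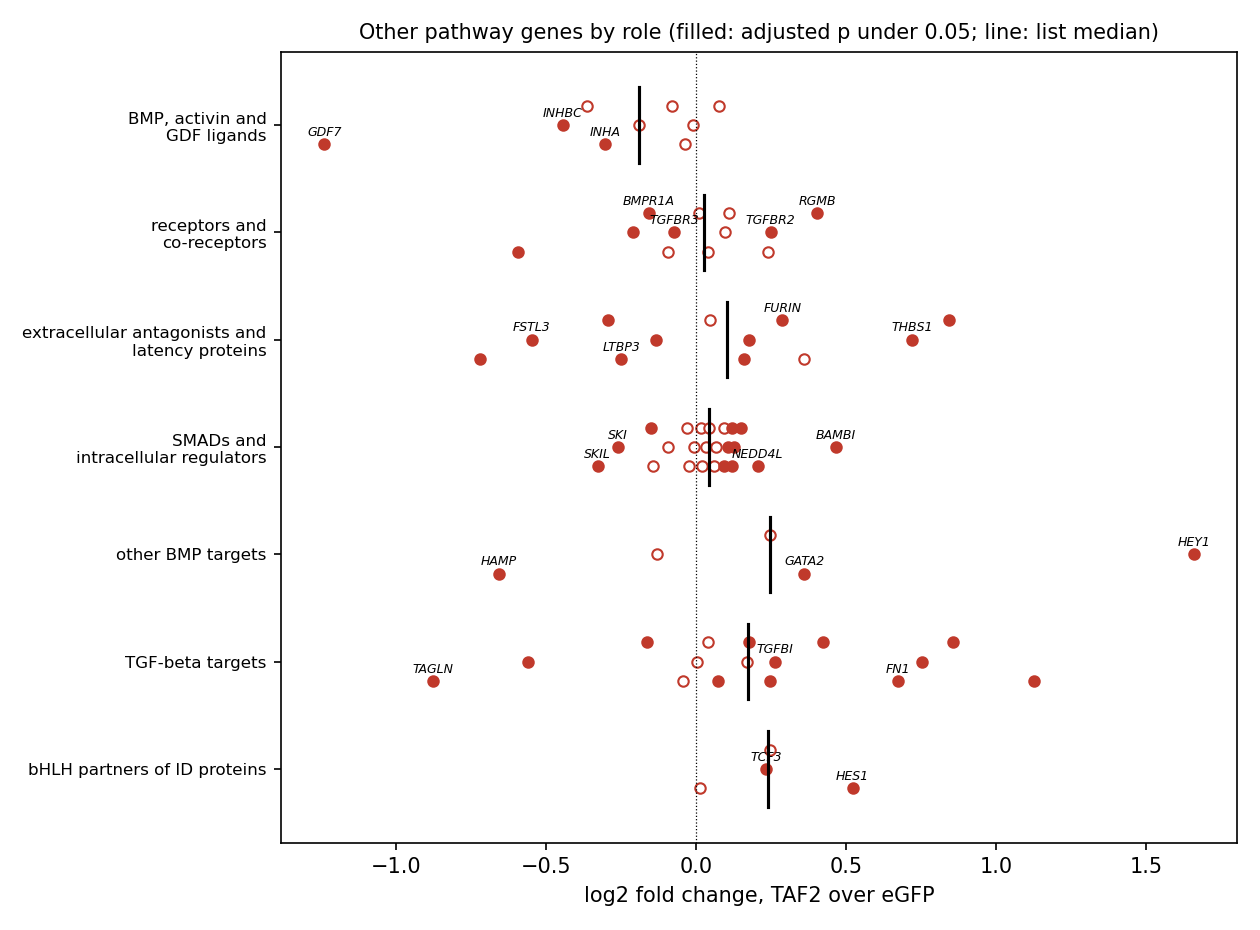
Log2 fold change of TAF2 over eGFP for the tested genes of each list (filled circles, adjusted p under 0.05; open circles, not past it; vertical line, list median), with the genes named in the text labelled. HEY1 at 1.66 and GDF7 at -1.24 are the farthest points, and FN1 (0.67) and TAGLN (-0.88) lie on opposite sides of 0 within the TGF-beta targets.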

How the data were processed

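RNA-seq of HepG2 cells gave 3 TAF2 and 3 eGFP libraries. The authors deposited unscaled expected counts for each gene, made with RSEM on hg38 per the submitters' processing notes. For aligner, annotation release and strand setting, the entry is: not given in the sources used here. Reads shared with an overlapping gene therefore cannot be told apart, which touches BMP4, INHBE and ID3, each overlapped by another annotated gene. Expected counts, of which 4.18% to 4.45% per library had a fraction, were rounded. Columns were matched to samples by name, with 0 left unused.

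Genes passing filterByExpr (12902) were scaled by TMM and compared with glmQLFit (robust) and glmQLFTest of edgeR 4.0.16 (R 4.3.3), group only, with Benjamini-Hochberg adjustment over all tested genes and a threshold of 0.05. Standard errors and 95% intervals were derived from the F statistics. Alternatives used DESeq2 1.42.0 and limma 3.58.1. The script was tested on simulated data. Positions came from transcript accessions matched to RefSeq GRCh38.p14, which placed 25645 of 26475 genes. No library was a copy of another: chi-square statistics within a group, divided by their degrees of freedom, were 1.98 to 5.91.

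The 10 genes, the lists and the tests were chosen with earlier results of these data known. Named genes are all 10, and in each list up to 4 called genes with the smallest p. Of the genes this rule names, 1 is not reported here.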

Additional observations from a re-analysis of the deposited data

How the results depend on the processing

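The calls of BMP4 and FST held under all 16 alternatives run for each, with log2 fold changes of 0.67 to 0.74 for both. Against a change of 1.5-fold (glmTreat), 373 genes were called (153 higher and 220 lower) and 2 of the 10 genes, and the unchanged estimates of TGFB1 (0.12), INHBE (-0.24) and ID2 (-0.22) were not past the threshold. Of the tested list genes, 1 of 9 further ligands, 0 of 12 receptors and 1 of 12 antagonists or latency proteins were then called. So were 1 of 5 other BMP targets and 3 of 16 TGF-beta targets. SMADs and regulators had 0 of 23, and helix-loop-helix partners 0 of 4. Over all tested genes the share called this way was 2.89%. With TMM without chromosomes 4 and 11, which lowered the median of all genes to -0.045, against -0.0027, ID1 was called at -0.057 and ID3 was -0.031 (not called). ID3 was -0.0089 in a fit without chromosomes 4 and 11 and chromosome 1 below 30 Mb, chosen after seeing the data. The cause of these changes was not tested. Upper-quartile scaling gave 3001 higher and 2675 lower genes, against 2662 and 2886. The DESeq2 Wald test called fewer genes, 4307 (2078 higher and 2229 lower) against 5548, and 5 of the 10. A filter of 1 CPM moved the median of further ligands to -0.31 and that of antagonists to 0.046, and no filter moved that of other BMP targets to 0.62, since the genes tested differ.

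Leaving out each library in turn called 4800 to 5288 genes and 5 of the 10 each time. Log2 fold changes then ran from -0.017 to 0.10 for SMAD7 (below 0 without eGFP replicate 3), from -0.020 to 0.0042 for ID1 (above 0 without TAF2 replicate 2) and from -0.012 to 0.041 for ID3 (below 0 without TAF2 replicate 3), none past the threshold. List medians ran from -0.33 to -0.015 for further ligands, -0.017 to 0.071 for receptors, 0.070 to 0.13 for antagonists, 0.036 to 0.058 for SMADs and regulators, 0.019 to 0.41 for other BMP targets, 0.13 to 0.24 for TGF-beta targets and 0.13 to 0.34 for helix-loop-helix partners. Same-numbered libraries of the groups did not deviate together (r of -0.079, -0.104 and -0.098), and the model with a replicate block called 5250 genes and the same 5 of the 10. Among the 24 list genes under the naming rule, INHA and TGFBR3 lost their call without some libraries, as given above, and 28 of 336 values under alternatives lost it in all. Apart from INHA and TGFBR3, calls were lost only against a change of 1.5-fold, where GDF7, THBS1, HEY1, FN1 and TAGLN alone kept theirs. SMAD6, with 238 to 314 counts per library, had the widest interval of the 9 tested genes.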
